A study of Mus musculus with 12 samples.

Results

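Interferon-stimulated genes are the genes that cells switch on when interferons reach them, and 35 of them were followed here in bulk RNA sequencing of mouse hippocampus. They were taken from a list of symbols chosen with earlier results of these data known. All 35 were found among the 56980 gene identifiers of the count table. A filter on low counts left 34 of the 35 for testing, among 19152 tested genes in all. Mx1, a GTPase that blocks virus replication, was the member left out.

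The 12 libraries came from 12 male mice, 3 in each of 4 groups: Trem2-KO at 9 months, App-KI at 9 months, Trem2-KO at 3 months and App-KI at 3 months. Every mouse carried the AppNL-G-F knock-in, in which the endogenous App gene encodes an amyloid precursor protein with a humanised amyloid-β sequence and familial mutations, so that amyloid plaques form with age without overexpression of the protein. Trem2-KO mice carried this knock-in and in addition lacked Trem2, a surface receptor of microglia that senses lipids, whereas App-KI mice carried the knock-in alone. No mouse without the knock-in was analysed, so a difference between 9 and 3 months combines ageing with the plaque load that builds up over it. Each library has its own mouse identifier in the labels. Total counts ran from 14627892 to 24594655 per library, and 3 counts, the most that a count of 0 allows, corresponded to 0.122 to 0.206 CPM, the counts relative to library size. Trem2 stood at 3.62 to 3.83 CPM in Trem2-KO and at 49.8 to 55.6 CPM in App-KI at 9 months, and at 1.85 to 2.17 CPM in Trem2-KO and 8.05 to 10.4 CPM in App-KI at 3 months, which fits the labels.

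Type I interferons bind the receptor chains Ifnar1 and Ifnar2, whose kinases Jak1 and Tyk2 phosphorylate Stat2. Stat2 and Irf9 belong to a transcription factor complex that binds interferon-stimulated response elements in the promoters of antiviral genes, while interferon-γ acts through a receptor of its own and favours guanylate-binding proteins. In brains with amyloid, interferon-stimulated genes are known from a small subset of microglia, and astrocytes, endothelial cells and border macrophages can express them too. In a bulk library, fewer cells of a type and less RNA per cell cannot be told apart.

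The response element is the sequence through which this factor acts, and promoters that hold its core before the start are shown for some genes described in the results. RefSeq promoter windows on GRCm38.p6, each covering 250 bases before to 50 bases after a transcript start, were found for 26 of the 35 members, as 31 windows. The core searched was GAAANNGAAA on either strand, where N is any base, so that a pair of TTTC blocks on the printed strand is the same core read from the other strand. It was present in 16 of the 31 member windows (51.6%), belonging to 15 of the 26 members, against 1131 of all 32851 windows (3.44%). These counts cover whole windows, and the matches of Ifih1 and Ifitm3, which reach past the start, are not printed. Each stretch below is written 5′ to 3′ on the strand of its gene, with every match to this core in capitals; overlapping matches run together.
Gbp2: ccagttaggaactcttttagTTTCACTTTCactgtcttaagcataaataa
Gbp3: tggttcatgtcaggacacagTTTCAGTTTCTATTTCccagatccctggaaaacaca
Gbp7: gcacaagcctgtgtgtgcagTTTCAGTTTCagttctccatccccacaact
Stat2: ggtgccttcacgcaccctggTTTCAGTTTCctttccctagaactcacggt
Trim30a: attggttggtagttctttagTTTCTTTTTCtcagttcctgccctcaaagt
Slfn5: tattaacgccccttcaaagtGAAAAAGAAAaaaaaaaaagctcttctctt
Isg15: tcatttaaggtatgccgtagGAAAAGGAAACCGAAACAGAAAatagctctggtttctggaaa
Ifit1: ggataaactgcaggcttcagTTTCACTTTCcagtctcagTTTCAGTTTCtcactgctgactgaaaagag
Ifit3: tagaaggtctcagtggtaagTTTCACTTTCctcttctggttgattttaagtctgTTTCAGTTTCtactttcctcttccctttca
Ifit3b: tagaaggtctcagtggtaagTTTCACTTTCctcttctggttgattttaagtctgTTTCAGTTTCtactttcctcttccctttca

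On GRCm38.p6 the 3 Gbp stretches lie on the plus strand at chr3:142620584-142620633 (Gbp2), chr3:142559979-142560034 (Gbp3) and chr3:142530263-142530312 (Gbp7). Those of Stat2 (chr10:128270256-128270305) and Slfn5 (chr11:82951927-82951976) are also on the plus strand, and those of Trim30a (chr7:104465200-104465249) and Isg15 (chr4:156200855-156200916) are on the minus strand. Ifit1 (chr19:34640765-34640833), Ifit3 (chr19:34583353-34583436) and Ifit3b (chr19:34607749-34607832) lie on the plus strand of 1 chromosome. The first matched base stood 59 bases before the start in Gbp2, 45 in Gbp3, 53 in Gbp7, 78 in Isg15, 104 in Ifit1 and 222 in Stat2. The stretches of Ifit3 and Ifit3b were equal at 84 of 84 bases, and reads of this pair may be split between them in counting, so both are reported as uncertain. Isg15, Ifit1, Ifit3 and Ifit3b were called in no comparison. Of the 6 members called with age in both genotypes, Irf9, Dtx3l and Lgals3bp had windows without the core, and Ifi204, Parp14 and Parp9 had no window. A match describes these letters only and is not a measured binding site.

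In the absence of Trem2, interferon-stimulated genes were higher at 9 than at 3 months: 13 of the 34 tested members rose, none fell, and the log2 fold changes of all 34 were positive. The members that rose were the transcription factor subunits Irf9 and Stat2, the nucleic acid sensors Ifi204 and Ifih1, the guanylate-binding proteins Gbp2, Gbp3 and Gbp7, the ADP-ribosyltransferase Parp14, the partners Parp9 and Dtx3l, and Slfn5, Sp100 and Lgals3bp. None was among the 14 tested antiviral effectors, the role with the most members, although their median log2 fold change was 0.63. A gene was called, here and below, at a Benjamini-Hochberg adjusted p under 0.05 in edgeR's quasi-likelihood test over all tested genes. Of all tested genes 8.7% were called in this comparison, 5.68% as higher and 3.02% as lower, against 38.2% of the tested members. Since the members were chosen with earlier results known, their share, here and below, is a description only. The members' median log2 fold change was 0.66, with a range of 0.02 to 2.52, against a median of 0.0023 over all tested genes. The libraries of the 2 ages did not overlap for 22 members, all higher at 9 months, where 13.5% of all tested genes were separated in that direction.

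Irf9, the DNA-binding subunit of the interferon-activated factor, had 19.7, 23.4 and 20.3 CPM in Trem2-KO at 9 months, against 13.8, 11.4 and 16.2 CPM at 3 months. Its partner Stat2 had 41.8, 43.6 and 44.8 CPM at 9 months, against 37.8, 31.7 and 35.4 CPM at 3 months. All 9-month libraries lay above all 3-month libraries for both genes. Irf9 rose by 0.62 ± 0.12 (log2 fold change ± SE, adjusted p = 0.00233, edgeR) and Stat2 by 0.31 ± 0.08 (adjusted p = 0.0166). Exons of Irf9 overlap those of Rnf31 on the same strand, and how shared reads were counted is not given in the sources used here. The other signalling members were not called in Trem2-KO: Irf7, which amplifies type I interferon production, averaged 4.46 ± 1.20 CPM at 9 months and 3.10 ± 1.21 CPM at 3 months (SD, n = 3 each), and Usp18, which restrains the receptor, averaged 5.85 ± 0.788 CPM at 9 months and 3.70 ± 2.14 CPM at 3 months (SD, n = 3 each). Isg15, a ubiquitin-like modifier, averaged 1.28 ± 0.0732 CPM at 9 months and 1.25 ± 0.755 CPM at 3 months (SD, n = 3 each).

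Ifi204 (ENSMUSG00000073489), a DNA-binding protein of the family that senses DNA, was nearly undetected at 3 months. It had 37, 33 and 30 counts in the Trem2-KO libraries at 9 months, or 1.63, 1.58 and 1.59 CPM, against 2, 2 and 12 counts at 3 months, or 0.137, 0.0879 and 0.578 CPM. The first and second 3-month libraries were thus under their 3-count limit. Its log2 fold change was 2.52 ± 0.46 (adjusted p = 0.00141, edgeR) and ran from 2.03 to 3.82 as single libraries were left out, called each time. Ifih1, which recognises long double-stranded RNA, had 9.35, 8.10 and 7.74 CPM at 9 months, against 6.85, 5.98 and 4.48 CPM at 3 months, a rise of 0.55 ± 0.17 (adjusted p = 0.0452). Zbp1, a sensor of Z-form nucleic acids, was not called and had 20, 12 and 17 counts at 9 months, against 7, 2 and 12 counts at 3 months.

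The guanylate-binding proteins are interferon-induced GTPases that attack intracellular membranes around pathogens. Gbp2 had 8.12, 9.34 and 11.5 CPM in Trem2-KO at 9 months, against 6.30, 3.87 and 5.16 CPM at 3 months. Gbp3 had 11.5, 15.1 and 17.6 CPM at 9 months, against 9.52, 6.29 and 9.25 CPM at 3 months. Gbp7 had 13.7, 11.2 and 13.5 CPM at 9 months, against 7.33, 8.22 and 10.5 CPM at 3 months. The ages did not overlap for these 3 genes, and the rises were 0.93 ± 0.25 for Gbp2 (adjusted p = 0.0316, edgeR), 0.83 ± 0.23 for Gbp3 (adjusted p = 0.0438) and 0.55 ± 0.16 for Gbp7 (adjusted p = 0.0367). The promoters of all 3 hold the response element core shown above. Gbp4 had a log2 fold change of 0.74 ± 0.28 (adjusted p = 0.123).

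Parp14 had 3.71, 3.55 and 4.14 CPM in Trem2-KO at 9 months, against 1.71, 1.32 and 1.83 CPM at 3 months, a rise of 1.23 ± 0.20 (adjusted p = 0.000703, edgeR). Parp9 had 8.03, 10.6 and 8.86 CPM at 9 months, against 5.89, 4.62 and 6.89 CPM at 3 months. Dtx3l, the ubiquitin ligase that pairs with the Parp9 protein, had 12.5, 12.7 and 13.8 CPM at 9 months, against 9.46, 7.96 and 7.61 CPM at 3 months. The ages were separated in all 3 genes, with rises of 0.66 ± 0.18 for Parp9 (adjusted p = 0.0264) and 0.65 ± 0.13 for Dtx3l (adjusted p = 0.00303). The exons of Parp9 and Dtx3l overlap on opposite strands, and since the strand setting of the counting is not given in the sources used here, reads in the shared stretch cannot be assigned to one of them. Trim30a, a ubiquitin ligase of the TRIM family, had 4.63, 5.70 and 4.77 CPM at 9 months, against 3.56, 2.46 and 3.57 CPM at 3 months, a log2 fold change of 0.67 that missed the threshold (SE 0.21, adjusted p = 0.0576).

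Lgals3bp, a secreted glycoprotein that binds galectins, had 49.4, 60.8 and 35.3 CPM in Trem2-KO at 9 months, against 17.2, 19.0 and 23.4 CPM at 3 months, a rise of 1.28 ± 0.24 (adjusted p = 0.0138, edgeR). Sp100, a component of nuclear bodies, had 9.05, 7.91 and 10.2 CPM at 9 months, against 5.48, 4.88 and 6.84 CPM at 3 months, a rise of 0.66 ± 0.16 (adjusted p = 0.0123). Slfn5, of the Schlafen family, had 8.74, 6.61 and 7.53 CPM at 9 months, against 4.18, 4.0 and 5.78 CPM at 3 months, a rise of 0.71 ± 0.17 (adjusted p = 0.00977). The ages did not overlap in any of these 3 genes.

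The antiviral effectors are a role assigned here, in which some members attack viral RNA, assembly or entry and others, such as Xaf1 and Cmpk2, act otherwise. The role held 15 members, of which 14 were tested and none was called, although all 14 had positive changes (median log2 fold change 0.63). Ifit1, which binds viral RNA caps, had 12.2, 14.1 and 18.0 CPM in Trem2-KO at 9 months, against 7.67, 2.68 and 12 CPM at 3 months (log2 fold change 1.0 ± 0.50, adjusted p = 0.288, edgeR). Ifit3 had 29.0, 30.1 and 35.3 CPM at 9 months, against 17.3, 9.63 and 24.8 CPM at 3 months (0.87 ± 0.33, adjusted p = 0.161). In both genes every 9-month library stood above every 3-month library, but the 3-month libraries were themselves 4.46-fold apart for Ifit1 and 2.57-fold apart for Ifit3. Ifitm3, which blocks virus entry at membranes, came close to the threshold (0.61 ± 0.19, adjusted p = 0.0504). Cmpk2, a mitochondrial nucleotide kinase, had 31.6, 33.5 and 36.6 CPM at 9 months, against 31.9, 30.7 and 36.7 CPM at 3 months, with overlapping groups. Mx1, which was not tested, had 8 to 10 counts per library at 9 months and 2 to 5 at 3 months.

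**Figure D1:**
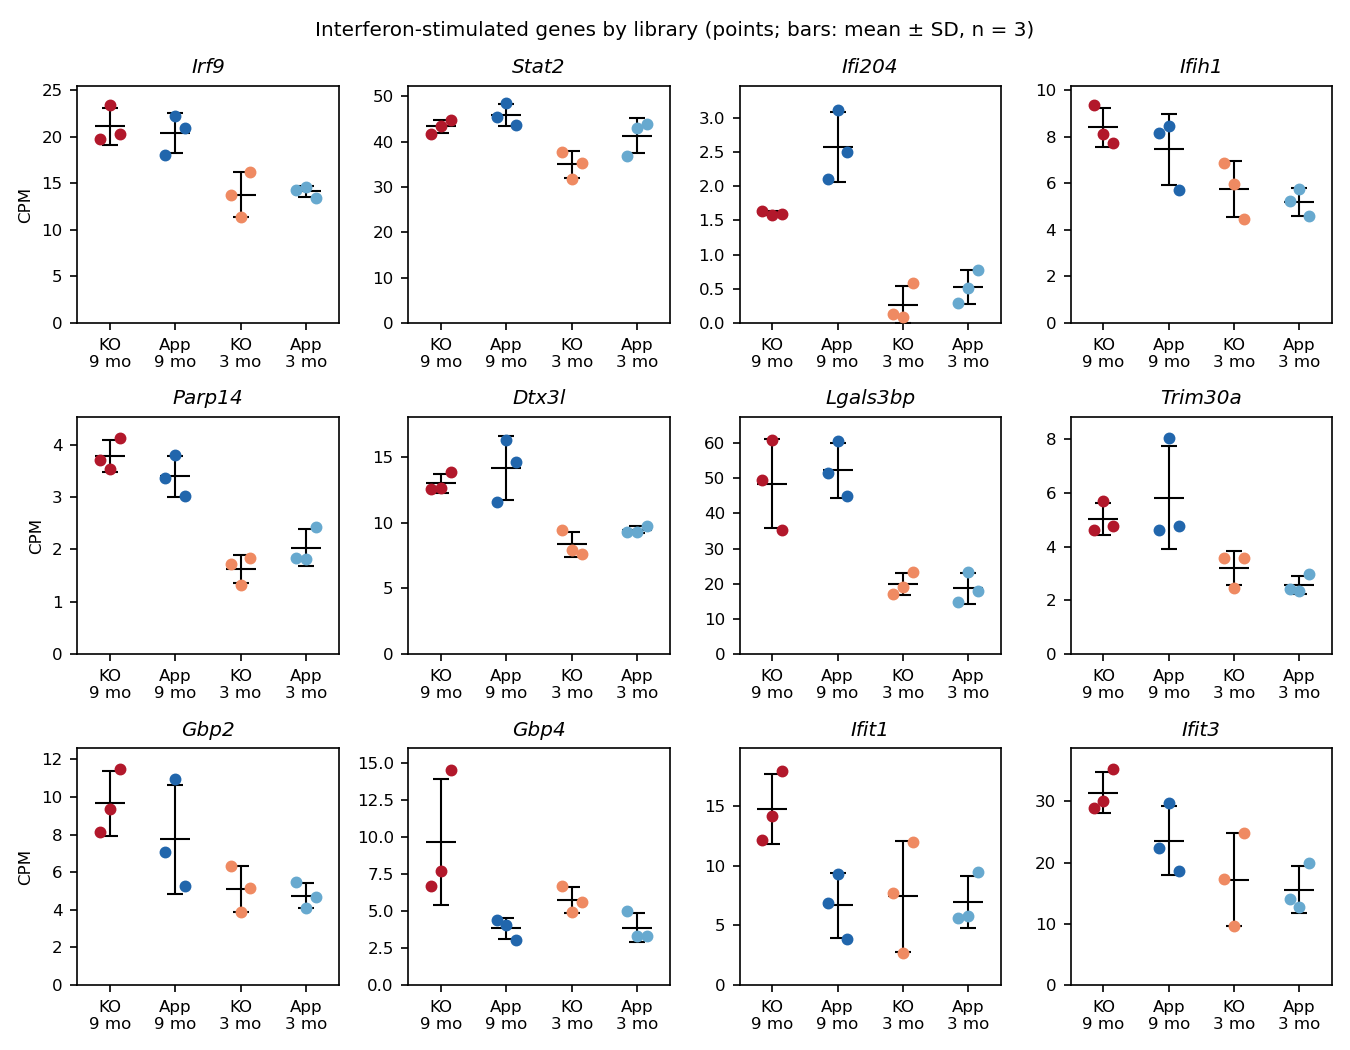
CPM of 12 interferon-stimulated genes (vertical axes, from 0) in the 3 libraries of each group (KO, Trem2-KO; App, App-KI; mo, months); points are libraries and bars are mean ± SD. The 9-month points lie above the 3-month points of the same genotype for Irf9, Ifi204, Parp14, Dtx3l and Lgals3bp, and the 3-month Trem2-KO points of Ifit1 and Ifit3 spread widely, at 2.68 to 12 CPM for Ifit1.

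With Trem2 present, 7 of the 34 tested members rose at 9 months relative to 3 months and none fell: Irf9, Ifi204, Trim30a, Parp14, Parp9, Dtx3l and Lgals3bp. All 4 PARP and ubiquitin ligase members were among them, and no antiviral effector or guanylate-binding protein was. Of all tested genes 6.66% were called in this comparison, 3.95% as higher and 2.71% as lower, against 20.6% of the tested members. The median log2 fold change of the members was 0.46 (range -0.35 to 2.30) against -0.0011 over all tested genes, and 31 of the 34 were positive. The libraries of the 2 ages did not overlap for 10 members, all higher at 9 months, against 11.2% of all tested genes.

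Ifi204 had 2.11, 3.11 and 2.49 CPM in App-KI at 9 months, against 0.285, 0.514 and 0.780 CPM at 3 months, a rise of 2.30 ± 0.39 (adjusted p = 0.000587, edgeR). Trim30a had 4.64, 8.04 and 4.79 CPM at 9 months, against 2.41, 2.34 and 2.98 CPM at 3 months, a rise of 1.18 ± 0.22 (adjusted p = 0.00137). Lgals3bp had 51.5, 60.5 and 44.9 CPM at 9 months, against 14.8, 23.5 and 17.9 CPM at 3 months, a rise of 1.49 ± 0.24 (adjusted p = 0.00675). These 3 genes kept their call when any one of the 6 libraries was left out.

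Irf9 had 18.0, 22.3 and 20.9 CPM in App-KI at 9 months, against 14.3, 14.6 and 13.5 CPM at 3 months (0.53 ± 0.12, adjusted p = 0.00707, edgeR). Dtx3l had 11.5, 16.3 and 14.6 CPM at 9 months, against 9.29, 9.30 and 9.76 CPM at 3 months (0.58 ± 0.13, adjusted p = 0.0057). Parp9 had 9.54, 10.5 and 6.17 CPM at 9 months, against 5.14, 5.02 and 5.56 CPM at 3 months (0.74 ± 0.18, adjusted p = 0.016). In each the 9-month libraries were all the higher ones, as they were for Parp14, with 3.37, 3.81 and 3.02 CPM at 9 months, against 1.83, 1.83 and 2.44 CPM at 3 months (0.74 ± 0.20, adjusted p = 0.027).

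Gbp7, Xaf1 and Ifit3b were separated by age in App-KI without passing the threshold. Gbp7 had 10.2, 14.3 and 9.18 CPM at 9 months, against 8.44, 7.08 and 8.58 CPM at 3 months (0.48 ± 0.16, adjusted p = 0.0904, edgeR). Xaf1, a factor that promotes cell death, had 5.48, 6.22 and 5.05 CPM at 9 months, against 4.2, 3.54 and 4.0 CPM at 3 months (0.51 ± 0.18, adjusted p = 0.0987). Ifit3b had 12.7, 18.2 and 10.6 CPM at 9 months, against 7.09, 6.96 and 8.93 CPM at 3 months (0.85 ± 0.28, adjusted p = 0.114). Ifit1 overlapped between the ages, with 6.91, 9.28 and 3.87 CPM at 9 months, against 5.58, 5.82 and 9.51 CPM at 3 months. Ifit2 also overlapped, with 14, 18.8 and 14.3 CPM at 9 months, against 14.7, 11.2 and 13.5 CPM at 3 months.

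In all, 6 of the 34 tested members (17.6%) were called higher with age in both genotypes, against 439 of all tested genes (2.29%). They were Irf9, Ifi204, Parp14, Parp9, Dtx3l and Lgals3bp. The 2 comparisons share no libraries, but both come from 1 fit with a shared estimate of spread per gene, so they are not independent. Trim30a was called in App-KI alone, and Stat2, Ifih1, Gbp2, Gbp3, Gbp7, Slfn5 and Sp100 in Trem2-KO alone. The test of the difference itself, the interaction of age and genotype, called none of the 34 members, while 0.266% of all tested genes were called, 0.0574% as higher and 0.209% as lower. By edgeR 2 members had an unadjusted p under 0.05, against 6.04% of all tested genes, and DESeq2 also called none. Those 2 were Ifitm3 (0.59 ± 0.26, adjusted p = 0.781) and Slfn5 (0.50 ± 0.24, adjusted p = 0.808). The change with age was the larger one in Trem2-KO for 26 of the 34 members (76.5%), against 51.6% of all tested genes, and the median of the difference was 0.22. That median depended on single libraries: it was 0.06 without Trem2-KO replicate 2 at 3 months and 0.46 without replicate 3 there. A gene called in one genotype and not in the other was thus not shown to differ between them.

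**Figure D2:**
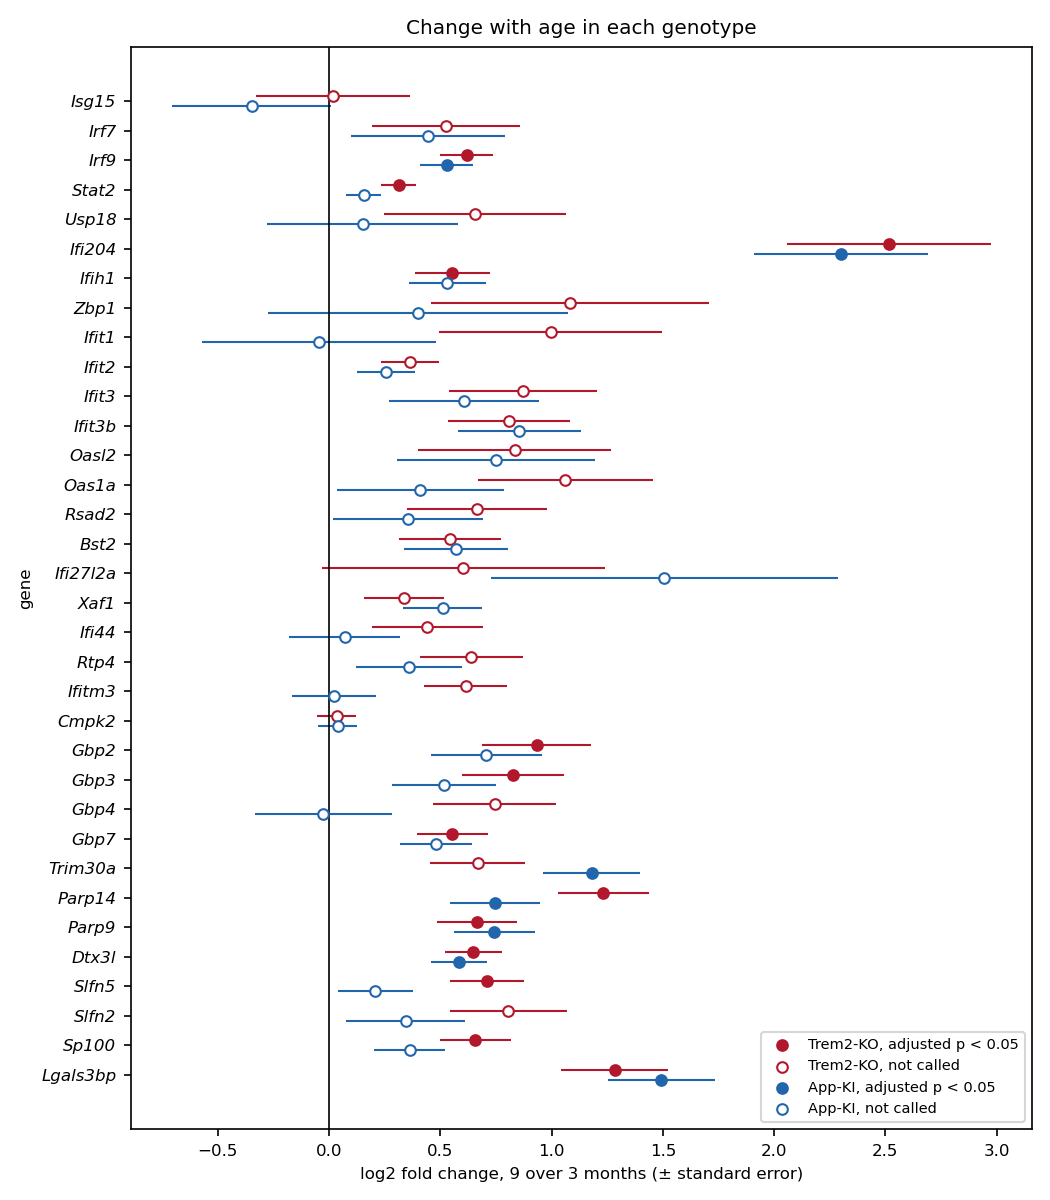
Log2 fold change of 9 over 3 months (horizontal axis) for each of the 34 tested members (rows), in Trem2-KO (red) and App-KI (blue); bars are standard errors and filled points passed adjusted p < 0.05. Most points lie right of 0 in both genotypes, Ifi204 lies farthest right at 2.52 in Trem2-KO and 2.30 in App-KI, and the error bars of the genotypes overlap for most genes.

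The number of members called with age depended on single libraries. In App-KI at 9 months, replicate 2 was the highest of the 3 libraries for 32 of the 34 members (94.1%) and replicate 3 the lowest for 26 (76.5%), whereas over all tested genes replicate 2 was the highest for 32.7% and replicate 3 the lowest for 35.1%. In Trem2-KO at 3 months, replicate 3 was the highest for 28 members (82.4%, against 31.1% of all tested genes) and replicate 2 the lowest for 28 members (82.4%, against 33.6% of all tested genes). In App-KI at 3 months, replicate 3 was the highest for 22 members (64.7%, against 31.8% of all tested genes). In these 3 groups most members thus ranked the mice alike. In Trem2-KO at 9 months no library led in this way: replicate 3 was the highest for 16 members (47.1%) and replicate 1 the lowest for 18 (52.9%). The spread was smallest there: the mean log2 CPM of the 34 members was 2.86, 2.91 and 2.95, against 2.63, 2.96 and 2.32 in App-KI at 9 months. At 3 months it was 2.11, 1.74 and 2.56 in Trem2-KO, against 2.11, 2.02 and 2.35 in App-KI.

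**Figure D3:**
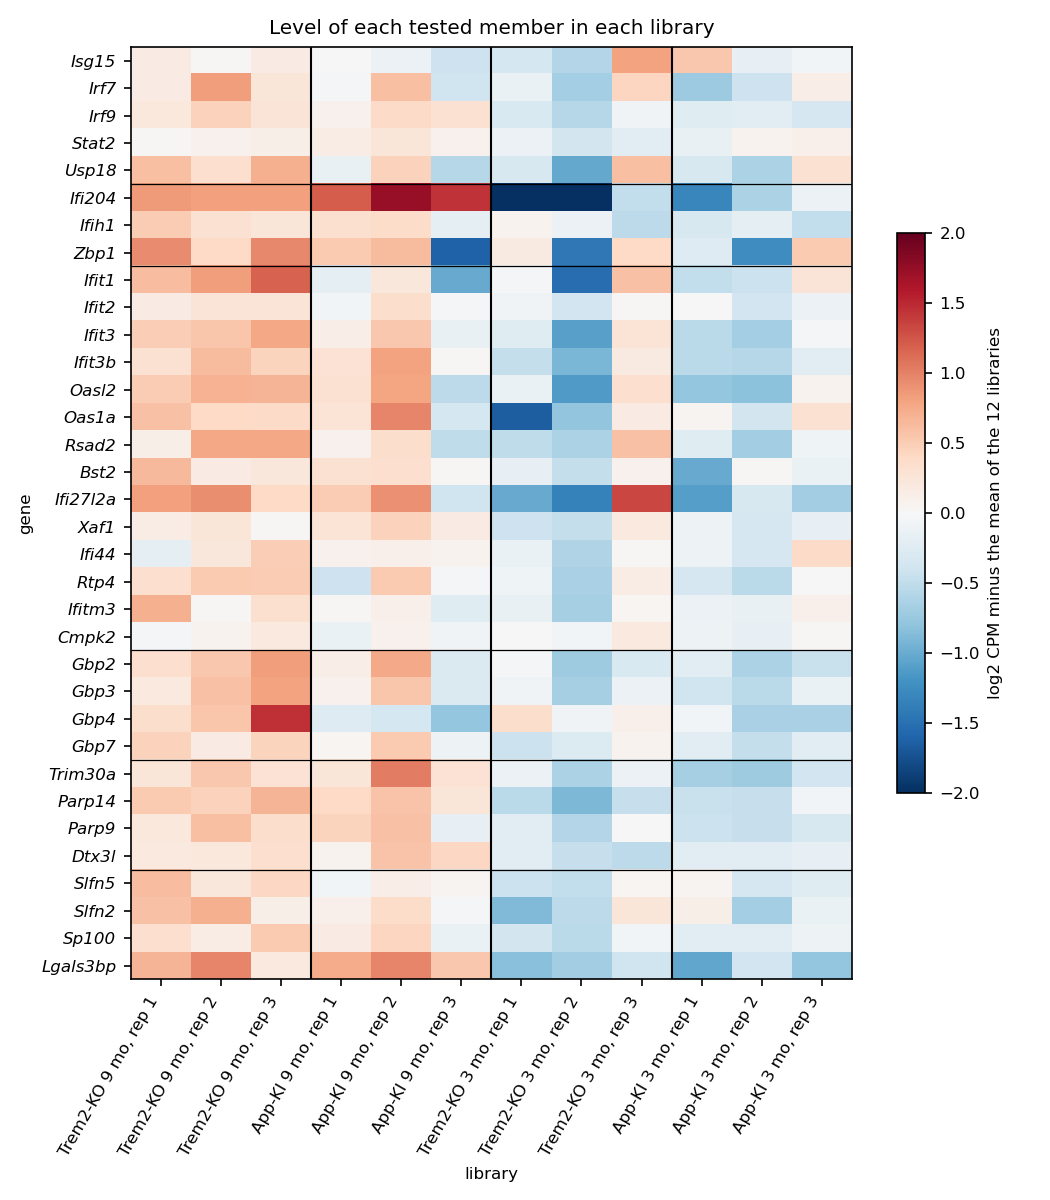
Log2 CPM of each of the 34 tested members (rows, grouped by role) in each of the 12 libraries (columns), minus that gene's mean over the libraries; red is higher and blue is lower, and colours stop at 2 above and below the mean, a limit that Ifi204 passed in 2 of the Trem2-KO libraries at 3 months. The column of App-KI 9 months replicate 2 is redder than its neighbours, and that of Trem2-KO 3 months replicate 2 is bluer, in most rows.

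In App-KI the count of members called with age was 7 with all libraries. It fell to 3 without replicate 2 at 9 months, with a median log2 fold change of 0.24, and the calls of Irf9, Parp14, Parp9 and Dtx3l were lost. Their log2 fold changes without that library were 0.46 for Irf9, 0.65 for Parp14, 0.59 for Parp9 and 0.46 for Dtx3l, so the changes were smaller but of the same direction. Without replicate 3 at 9 months it was 10, with Ifih1, Gbp2 and Gbp7 added and a median of 0.58. In Trem2-KO the count of 13 fell to 4 without replicate 2 at 3 months, leaving Dtx3l, Ifi204, Irf9 and Parp14, with a median of 0.51. Among the 9 calls lost there, the log2 fold change was still 1.25 for Lgals3bp, 0.76 for Gbp2, 0.65 for Gbp3 and 0.60 for Slfn5. Without replicate 3 at 3 months it was 15, with a median of 0.87. That setting added Ifit3b, Oas1a, Rsad2, Ifi27l2a, Ifitm3 and Slfn2, and it lost Stat2, Ifih1, Gbp2 and Gbp3.

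No single library carried the change of every gene. In Trem2-KO the calls of Irf9, Ifi204, Parp14 and Dtx3l held without each of the 6 libraries in turn, and those of Lgals3bp, Slfn5 and Sp100 were lost only without replicate 2 at 3 months, with adjusted p up to 0.0767 (edgeR). Stat2 held in 4 of the 6 settings, Parp9 in 3, Gbp2, Gbp7 and Ifih1 in 2 each, and Gbp3 in 1. In App-KI the calls of Ifi204, Trim30a and Lgals3bp held in all 6 settings, Irf9 and Dtx3l in 5 and Parp14 and Parp9 in 2. Leaving out a library also leaves 1 group with 2 mice and so less power. Calls over all tested genes in these settings are not given here, so a fall particular to the members was not shown.

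Microglial markers moved with age too. A list of 17 pan-microglial markers, from which the deleted Trem2 was left out, had 14 called higher and none lower with age in Trem2-KO (median log2 fold change 0.68) and 17 of 17 called higher in App-KI (median 1.51). Their summed level was 939 to 1008 CPM in Trem2-KO and 1628 to 1744 CPM in App-KI at 9 months, against 580 to 606 CPM in Trem2-KO and 613 to 638 CPM in App-KI at 3 months. The pan-microglial markers were even between mice where the members were not: their mean log2 CPM was 5.76, 5.81 and 5.80 in the 3 App-KI libraries at 9 months. Of 12 markers of meningeal and perivascular fibroblasts, 8 were called higher with age in Trem2-KO and 1 in App-KI. Of the 8 tested of 12 markers of border macrophages and monocytes, 3 were called higher with age in Trem2-KO (Mrc1, Cd163 and F13a1) and none in App-KI. Of 10 endothelial markers, 4 were called higher with age in Trem2-KO (Pecam1, Cdh5, Flt1 and Kdr) and none in App-KI. In App-KI at 9 months the mean log2 CPM of these 3 lists ranked the mice as the members did. It was 3.70, 3.99 and 3.38 for fibroblasts, 0.66, 0.72 and 0.16 for border macrophages and monocytes, and 4.57, 4.58 and 4.39 for endothelium. Oligodendrocyte markers did so too, whereas neutrophil, T and NK cell, choroid plexus, astrocyte and neuronal markers ranked them otherwise. In no other group did the fibroblast, border macrophage or endothelial list rank the mice as the members did. In Trem2-KO at 3 months the members had 2.11, 1.74 and 2.56. There fibroblasts had 3.92, 3.46 and 3.38, border macrophages and monocytes 0.64, 0.10 and 0.27, and endothelium 4.52, 4.45 and 4.38. The share of any of these cells in the members' change was not tested. Markers of T and NK cells and of neutrophils were near 0, at summed levels of 1.98 to 4.01 CPM and 0.685 to 2.20 CPM over all libraries, with Gzma at 0 throughout.

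At 9 months 1 interferon-stimulated member, Gbp4, was called higher in Trem2-KO than in App-KI and none was called lower, where 2.08% of all tested genes were called, 0.684% as higher and 1.39% as lower. By sign, 28 of the 34 tested members were positive (82.4%, against 51.8% of all tested genes), with a median log2 fold change of 0.18 (range -0.68 to 1.32) against 0.0066 over all tested genes. In the same libraries 14 of the 17 microglial markers were called lower and none higher, with a median of -0.83. At an unadjusted p under 0.05 there were 3 members, all higher (Gbp4, Slfn5 and Ifitm3), against 13.6% of all tested genes. As single libraries were left out, the members' median ran from 0.07 without App-KI replicate 3 to 0.36 without App-KI replicate 2. Most members ranked the App-KI mice alike, so their signs are not independent of one another.

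Gbp4 (ENSMUSG00000079363), a guanylate-binding protein, had 6.71, 7.71 and 14.5 CPM in Trem2-KO at 9 months, against 4.38, 4.08 and 3.02 CPM in App-KI. The third Trem2-KO library was the highest by far, and the groups did not overlap. The log2 fold change was 1.32 ± 0.29 (adjusted p = 0.0362, edgeR). The call was lost, with adjusted p up to 0.165, when any one of the 3 App-KI libraries was left out, and it held without each Trem2-KO library, while the change stayed between 0.90 and 1.53. The call was also lost when only the 2 groups compared were fitted (log2 fold change 1.32, adjusted p = 0.162). Exons of Gbp4 overlap those of Gbp8 and Gbp9 on the same strand, and how reads shared by these genes were counted is not given in the sources used here. At 3 months the same gene had 6.72, 4.97 and 5.64 CPM in Trem2-KO, against 5.01, 3.31 and 3.32 CPM in App-KI, with overlapping groups (0.55 ± 0.29, adjusted p = 0.539).

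The groups at 9 months were also separated for Slfn5, Ifit1, Isg15 and, in the other direction, Ifi204, without passing the threshold. In all, 4 members were separated as higher and 1 as lower, where 8.28% and 9.04% of all tested genes were. Slfn5 had 8.74, 6.61 and 7.53 CPM in Trem2-KO, against 5.43, 6.22 and 5.84 CPM in App-KI (0.39 ± 0.16, adjusted p = 0.279, edgeR). Ifit1 had 12.2, 14.1 and 18.0 CPM in Trem2-KO, against 6.91, 9.28 and 3.87 CPM in App-KI (1.12 ± 0.51, adjusted p = 0.384). Ifi204 had 1.63, 1.58 and 1.59 CPM in Trem2-KO, against 2.11, 3.11 and 2.49 CPM in App-KI (-0.68 ± 0.33, adjusted p = 0.38).

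Isg15 had 1.32, 1.20 and 1.33 CPM in Trem2-KO at 9 months, against 1.16, 1.07 and 0.853 CPM in App-KI, which is 25 to 30 counts against 13 to 22 counts. Irf9 and Stat2 overlapped between the genotypes at 9 months, as did Gbp2, Gbp3, Gbp7, Parp9, Parp14, Dtx3l, Trim30a, Sp100 and Lgals3bp. Lgals3bp averaged 48.5 ± 12.8 CPM in Trem2-KO and 52.3 ± 7.84 CPM in App-KI (SD, n = 3 each). The other 12 tested members had no call in any comparison and were separated between groups neither by genotype nor by age in App-KI (Irf7, Usp18, Zbp1, Oasl2, Oas1a, Rsad2, Bst2, Ifi27l2a, Ifi44, Rtp4, Ifitm3 and Slfn2). Oasl2, Oas1a, Bst2 and Rtp4 are among those separated by age in Trem2-KO. The group means of the 12 members at 9 months ran from 0.698 to 14 CPM in Trem2-KO and from 0.465 to 11.1 CPM in App-KI.

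**Figure D4:**
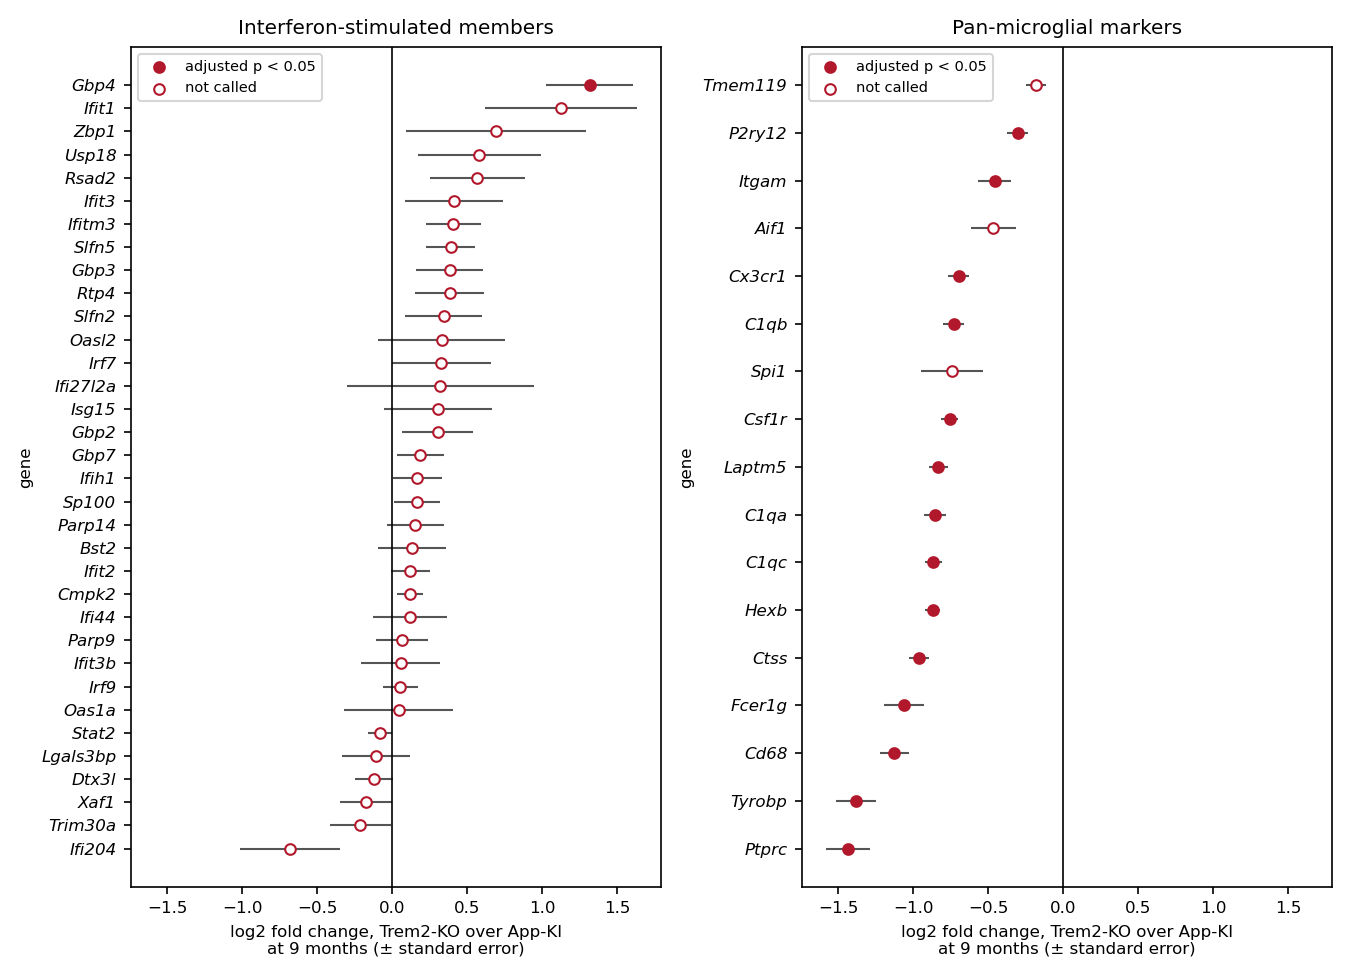
Log2 fold change of Trem2-KO over App-KI at 9 months (horizontal axes, same scale) for the 34 tested interferon-stimulated members (left) and the 17 pan-microglial markers (right); bars are standard errors and filled points passed adjusted p < 0.05. The members lie mostly at or right of 0, with Gbp4 farthest right at 1.32, whereas all 17 markers lie left of 0.

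Set against the microglial markers of the same library, the members stood higher in Trem2-KO at 9 months. The mean log2 CPM of the members minus that of the 17 markers was -2.10, -2.07 and -2.05 in Trem2-KO, against -3.14, -2.85 and -3.48 in App-KI at 9 months. At 3 months it was -2.16, -2.53 and -1.79 in Trem2-KO, against -2.33, -2.35 and -2.07 in App-KI. The genotypes were apart at 9 months and overlapped at 3 months. This difference is a description without a test, and its larger part comes from the markers, which were lower in Trem2-KO. At 9 months the markers averaged 4.98 in Trem2-KO and 5.79 in App-KI. The members averaged 2.90 in Trem2-KO and 2.64 in App-KI, with overlapping libraries.

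Markers of other cells differed beside it in both directions. The 12 fibroblast markers summed to 328 to 487 CPM in Trem2-KO and 228 to 277 CPM in App-KI, and none was called (median log2 fold change 1.08). The 12 border macrophage and monocyte markers summed to 23.0 to 33.7 CPM in Trem2-KO and 12.8 to 21.1 CPM in App-KI, with none of the 8 tested called (median 0.89). The 10 endothelial markers summed to 342 to 357 CPM in Trem2-KO and 276 to 304 CPM in App-KI, with Kdr and Slco1a4 called higher. The 9 astrocyte markers summed to 5376 to 5839 CPM in Trem2-KO and 6112 to 6549 CPM in App-KI, with Gfap (-0.39, adjusted p = 0.000116, edgeR) and Aqp4 (-0.25, adjusted p = 0.0334) called lower. The part of these cells in the members' levels was not tested.

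**Figure D5:**
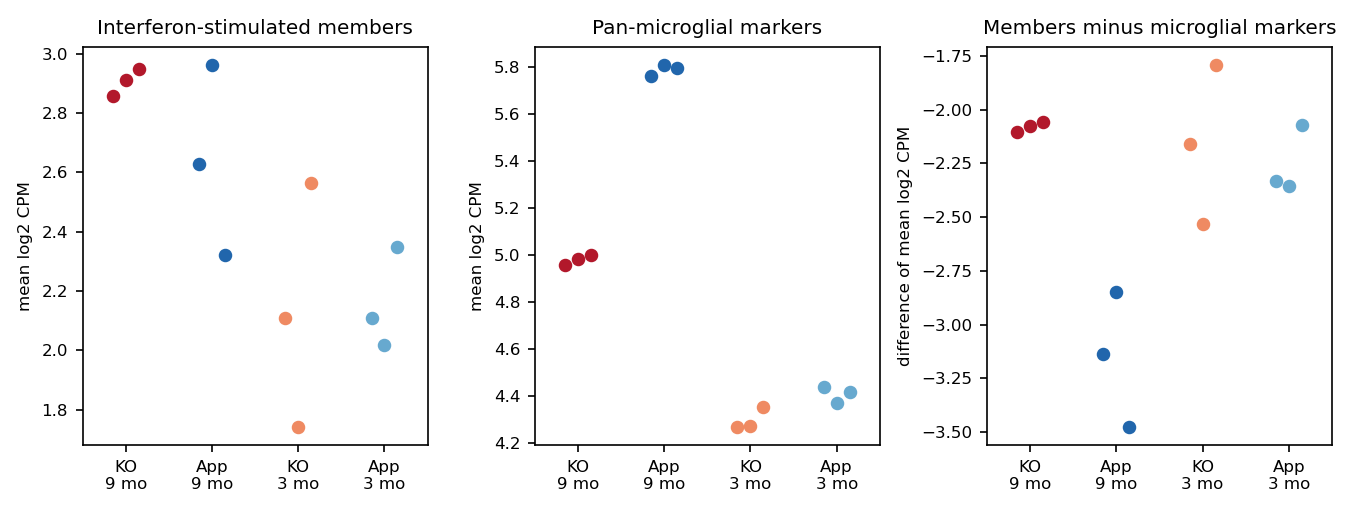
Mean log2 CPM of the 34 tested members (left) and of the 17 pan-microglial markers (middle), and the first minus the second (right), in the 3 libraries of each group (KO, Trem2-KO; App, App-KI; mo, months); each point is a library and the vertical axes do not start at 0. The markers separate the genotypes at 9 months, the members do not, and the difference is -2.10 to -2.05 in Trem2-KO against -3.48 to -2.85 in App-KI.

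At 3 months no member was called between Trem2-KO and App-KI by edgeR or by DESeq2, where 0.59% of all tested genes were called, 0.167% as higher and 0.423% as lower. No member was separated between the groups, where 8.65% of all tested genes were separated as higher and 8.94% as lower. One member, Stat2, had an unadjusted p under 0.05, against 11.2% of all tested genes. Stat2 had 37.8, 31.7 and 35.4 CPM in Trem2-KO, against 36.9, 43.0 and 44.0 CPM in App-KI (-0.24 ± 0.08, adjusted p = 0.203, edgeR). The members' median log2 fold change was 0.08, with 21 positive and 13 negative, and it was -0.24 without Trem2-KO replicate 3, the library in which most members were highest. Ifi27l2a shows this most plainly, with 2, 2 and 23 counts in Trem2-KO, against 3, 5 and 4 counts in App-KI. Its log2 fold change was 1.22 ± 0.79 (adjusted p = 0.611) with that library and -0.81 without it. At this depth and with 3 mice per group, differences of this size could not be told from the spread between mice.

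The interferons themselves were at or near 0. Of 20 interferon genes, 16 including Ifng had no count in any library, the other 4 summed to 7 counts over the 12 libraries, and none held more than 2 in a library, so none was tested. The other genes of the pathway come from lists of symbols, which were chosen with earlier results of these data known. Of 17 tested receptors and signalling genes, 6 were called higher with age in Trem2-KO and 8 in App-KI, and none lower. The transcription factor Irf8, which microglia depend on, rose by 1.02 ± 0.12 in Trem2-KO (adjusted p = 2.14e-05, edgeR) and by 1.73 ± 0.12 in App-KI (adjusted p = 1.39e-09). Ifngr1, the ligand-binding chain of the interferon-γ receptor, rose by 0.33 ± 0.08 in Trem2-KO (adjusted p = 0.0078) and by 0.52 ± 0.08 in App-KI (adjusted p = 8.51e-05). At 9 months Irf8 (-1.03 ± 0.11, adjusted p = 6.6e-06) and the phosphatase Ptpn6 (-1.19 ± 0.14, adjusted p = 1.67e-05) were lower in Trem2-KO than in App-KI, the only 2 of the 17 called there.

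Among 17 tested nucleic acid sensors and adaptors, 7 were called higher with age in Trem2-KO and 4 in App-KI. The signalling adaptor of RNA sensors, Mavs, rose by 0.56 ± 0.12 in Trem2-KO (adjusted p = 0.00458, edgeR), and the RNA sensor Ddx58 rose by 0.57 ± 0.12 in Trem2-KO (adjusted p = 0.00521) and by 0.43 ± 0.12 in App-KI (adjusted p = 0.0351). Tlr7, an endosomal receptor for single-stranded RNA, and Irf5, a factor downstream of it, were the 2 called between genotypes at 9 months, both lower in Trem2-KO: Tlr7 by -0.88 ± 0.16 (adjusted p = 0.00276) and Irf5 by -0.65 ± 0.13 (adjusted p = 0.0076).

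A further 55 tested interferon-stimulated genes outside the 35 had 21 called higher with age in Trem2-KO (median log2 fold change 0.69) and 17 in App-KI (median 0.44), and none lower. In Trem2-KO the immunity-related GTPases Irgm1 (0.88 ± 0.13, adjusted p = 0.000209, edgeR) and Irgm2 (0.96 ± 0.15, adjusted p = 0.000357) and the antiviral zinc-finger protein Zc3hav1 (1.07 ± 0.16, adjusted p = 0.000271) were among those with the smallest p. In App-KI these were Trim30d (1.34 ± 0.22, adjusted p = 0.000498), Nlrc5, an activator of class I antigen presentation genes (1.87 ± 0.33, adjusted p = 0.000849), and Irgm1 (0.73 ± 0.13, adjusted p = 0.000865). Between genotypes at 9 months 2 were called, both higher in Trem2-KO: Ifitm2, a relative of Ifitm3 (0.94 ± 0.17, adjusted p = 0.00331), and Ifi47, another immunity-related GTPase (1.02 ± 0.26, adjusted p = 0.0439). None of the 3 lists had a gene called between genotypes at 3 months or in the interaction.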

How the data were processed

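RNA of 12 hippocampi was extracted with a column kit and made into libraries with the SMART-Seq mRNA LP kit, per the labels' protocols. The authors deposited whole-number read counts per gene, without normalisation. STAR 2.7.10a, featureCounts 2.0.3, R 4.2.0, DESeq2 1.36.0 and the build GRCm39 are named in the submitters' processing notes, without roles; how strand and multimapping reads were handled, and with which annotation release, is not given in the sources used here. Exons of 12 of the 35 members overlap another gene. For Irf9, Rtp4, Gbp4, Gbp7, Parp14 and Sp100 the other gene lies on the same strand. Symbols (52073 of 56980 identifiers) came from GENCODE M21 on GRCm38, and promoters from RefSeq on GRCm38.p6.

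Genes were kept by filterByExpr (minimum count 10, minimum total 15) and libraries were scaled with TMM factors. Comparisons used the robust quasi-likelihood F-test of edgeR 4.0.16 in R 4.3.3, with limma 3.58.1, 1 term per group over 12 libraries, 8 residual degrees of freedom, with Benjamini-Hochberg adjustment over all tested genes. CPM uses scaled library sizes, and mean log2 CPM adds a prior count of 2. Intervals from 3 counts cover counting error only. The 5 comparisons, tried on simulated data, were repeated with DESeq2 1.42.0 and other settings.

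Members and lists were chosen with earlier results of these data known. Values per library are given for members called anywhere, for members separated between groups in the genotype comparison at 9 months or the age comparison in App-KI, and for the 3 other members with the highest CPM; of each pathway list up to 4 genes with the smallest p are named. Trem2 was taken out of the microglial list after the data were seen. The remaining named genes (Ifi27l2a, Mx1, Irf7, Usp18, Zbp1 and Ifitm3 among them) were chosen after their values were seen. Some items are not reported here.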

Additional observations from a re-analysis of the deposited data

How the results depend on the processing

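No paired analysis was possible because the labels give the mice of different groups no shared replicate numbers. No called member changed its sign under any setting run. Scaling by DESeq2's size factors changed no call of a member, and summing Ifit3 and Ifit3b changed none of theirs. Without the filter on low counts, members called higher with age numbered 23 in Trem2-KO, against 13, and 13 in App-KI, against 7; over all tested genes the calls higher were 1522, against 1088, and 916, against 757. The cause was not tested. DESeq2 called 17 members higher in Trem2-KO and 8 in App-KI, among 1126 and 751 of all tested genes. With only the 2 groups compared in the fit, 0 members were called between genotypes at 9 months, against 1. Over all tested genes, calls higher in Trem2-KO at 9 months numbered 131, against 437 without the filter, 211 by DESeq2 and 79 with only the 2 groups. At 3 months they numbered 32, against 109, 93 and 65, and calls lower numbered 81, against 238, 168 and 153, in the same order of settings. Leaving out single libraries gave 4 to 15 called members for age in Trem2-KO, 3 to 10 for age in App-KI, and 0 to 1 for genotype at 9 months. At 3 months it gave a median log2 fold change between -0.24 and 0.20 for genotype, and -0.81 to 1.76 for Ifi27l2a. Depth limits Ifi204, Ifi27l2a, Zbp1 and Mx1, each with a library at 1 or 2 counts. With 3 mice per group, calls near the threshold depend on single mice.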

Other observations

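Choroid plexus markers, from tissue that lies against the hippocampus, varied between the libraries of a group. Their mean log2 CPM was 6.65, 6.67 and 2.23 in Trem2-KO and 5.59, 1.37 and 5.61 in App-KI at 9 months. At 9 months App-KI replicate 2 and Trem2-KO replicate 3 had the highest members and the lowest choroid plexus level of their groups. At 3 months the levels were 4.52, 5.40 and 4.67 in Trem2-KO and 1.79, 5.74 and 3.84 in App-KI. There the highest members and the lowest choroid plexus level lay in different libraries of each group. The highest choroid plexus level was in the library with the lowest members in every group but Trem2-KO at 9 months. The relation was not tested. None of the 10 choroid plexus markers was called in any comparison. Of 9 astrocyte markers, 5 were called higher with age in Trem2-KO and 3 in App-KI.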
